A study of Mus musculus with 21 samples.

Results

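The members were 108 DNA sequences of 8 bases (8-mers) that carry the C/EBP half-site GCAA directly after a C, so that the half-site begins inside a CpG. They were chosen by sequence alone. All 8-mers with the core CGCAA as their last 5 bases were taken with their reverse complements, and the 19 that lay within 1 mismatch of the palindromes of CRE, PAR (a bZIP subfamily rich in proline and acidic residues) or C/EBP were left out of the 127 names found. The remaining 108 comprised 54 with the half-site on the strand synthesised on the array (half-site orientation, core CGCAA) and 54 with it on the other strand (reverse-complement orientation, core TTGCG), out of 65535 8-mers measured. Members of 1 orientation shared 5 bases and differed in 3 free bases.

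The proteins were DNA-binding domains of the bZIP family, made by in vitro transcription and translation as GST fusions and bound to 44K Agilent protein binding microarrays. The groups were CEBPB(V285A), a point mutant of CEBPB, on 5-methylcytosine (5mC), 5-hydroxymethylcytosine (5hmC) and unmodified cytosine (C), 2 arrays each; CREB1(A297V), the converse mutant of CREB1, on 5mC (2 arrays), 5hmC (4 arrays) and C (2 arrays); CEBPB on 5hmC (2 arrays); and CREB1 on 5mC (1 array), 5hmC (2 arrays) and C (2 arrays). CEBPB on 5mC and on C was not analysed here. The modified base entered during primer extension, so only the synthesised strand carried it and every 5mC or 5hmC site was hemi-modified.

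bZIP proteins bind DNA as dimers, each monomer reading a half-site with its basic region. C/EBP proteins prefer a pair of C/EBP half-sites joined head to head, and CREB1 prefers the cAMP response element (CRE), made of a pair of CRE half-sites around a central CpG. The residue exchanged between the mutants lies in the DNA-contacting basic region, where C/EBP proteins have valine and CREB1 has alanine. In mammalian DNA the C of a CpG is the main site of 5mC, and 5hmC is made from 5mC by oxidation.

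The sequences below are those on which the results turned, written 5′ to 3′ on the synthesised strand with the core in capitals and the free bases in lower case. The first is the hybrid of a CRE half-site and the C/EBP half-site.
CRE and C/EBP hybrid: tgaCGCAA
hybrid, reverse complement: TTGCGtca
cta member: ctaCGCAA
cga member: cgaCGCAA
caa member: caaCGCAA
cca member: ccaCGCAA
tcg member, reverse complement: TTGCGtcg
hybrid with T in place of C before the half-site: tgaTGCAA
its reverse complement: TTGCAtca
In half-site orientation the C at position 4 (the CpG) and the C at position 6 (inside the half-site) were modified on 5mC and 5hmC arrays. In reverse-complement orientation the only modified core base was the C at position 4, which belongs to the other strand of the same CpG. Each 8-mer was measured through the 35-base probes that held it, 4 to 30 per member with a median of 17. Only cccCGCAA had fewer than 8. As an example of each orientation, the probes whose CEBPB(V285A) 5mC intensity was nearest the median of all probes with the hybrid read as follows, with the 8-mer in capitals.
half-site orientation: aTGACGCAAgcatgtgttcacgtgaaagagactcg
reverse-complement orientation: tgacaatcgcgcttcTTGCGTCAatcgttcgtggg
The first gave intensities of 34282 and 39606 on the CEBPB(V285A) 5mC arrays, against 7907.5 and 7818 on its C arrays. The second gave 3784 and 2609.5 on 5mC, against 6588 and 4787 on C.

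All values below are Z-scores as the authors deposited them unless an intensity is named. A Z-score ranks an 8-mer within its array and is not an affinity, and scores were not scaled between arrays: the highest score of any 8-mer was between 15.7 and 256 on the 21 arrays. A number in the names of the deposited spot files took 6 values and is called run here. The labels do not state whether it marks a slide, a run or something else. All CEBPB(V285A) C arrays were in 1 run and all its 5mC arrays in another, and no CREB1 array shared a run with CEBPB(V285A), so run cannot be told apart from cytosine form within CEBPB(V285A) or from protein in its comparisons with CREB1. The same holds for CREB1 on 5hmC against C, for CEBPB(V285A) against CEBPB on 5hmC and for CREB1(A297V) against CREB1 on 5hmC, whose groups shared no run. The comparisons of CREB1 on 5mC with C, of CREB1(A297V) on 5mC with C, of CREB1(A297V) with CREB1 on C and of CEBPB with CREB1 on 5hmC each lay within 1 run. Median spot intensity was 76 on CREB1(A297V) 5hmC replicate 3 and between 288 and 2358 on the other 20 arrays. Reading the names on the synthesised strand assumed that the printed probe was the template for primer extension, and with the opposite reading the orientations would trade places. CREB1 on 5mC had a single array, whose spread was borrowed from the remaining groups in the fit. The labels do not state separate protein preparations for replicate arrays, so p-values measure the spread between these arrays, which may be technical.

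Scores of the half-site members were highest on 5mC. Their median was 11.4 for CEBPB(V285A) on 5mC (range 1.68 to 221), against 1.55 on 5hmC and 1.24 on C. For CREB1 it was 5.75 on 5mC (1.71 to 104), against 1.47 on 5hmC and 0.663 on C. The median was 1.25, 0.155 and 0.436 for CREB1(A297V) on 5mC, 5hmC and C, and 0.286 for CEBPB on 5hmC. Reverse-complement members had medians between -0.109 and 0.950 in all 10 groups. A score above 5 was reached on CEBPB(V285A) 5mC by 48 of 54 half-site members and 6 of 54 reverse-complement members, against 2.01% of all 8-mers on those arrays. On CREB1 5mC it was reached by 33 half-site and 0 reverse-complement members, against 0.772% of all 8-mers. Among the 1000 highest 8-mers stood 43 half-site members on CEBPB(V285A) 5mC and 44 on CREB1 5mC, against 5 and 3 on their C arrays.

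The hybrid tgaCGCAA was the highest half-site member in 8 of the 10 groups, the exceptions being CREB1 and CREB1(A297V) on 5mC, where ctaCGCAA was higher. In CEBPB(V285A) tgaCGCAA scored 237.5 and 205 on 5mC, 42.0 and 60.7 on 5hmC, and 60.8 and 54.6 on C. In CREB1 it scored 58.2 on the 5mC array, 70.1 and 82.8 on 5hmC, and 16.8 and 20.4 on C. Its 5mC and 5hmC scores thus both stood above those on C in CREB1, whereas in CEBPB(V285A) only the 5mC scores did. In CREB1(A297V) it scored 6.68 and 9.14 on 5mC, 5.50, 4.41, 4.27 and 3.30 on 5hmC and 5.93 and 7.97 on C, and in CEBPB 9.73 and 2.85 on 5hmC. The CREB1(A297V) arrays on 5mC and C overlapped.

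In the other orientation the same site scored lower on 5mC and on 5hmC than on C in both CEBPB(V285A) and CREB1. TTGCGtca scored 16.8 and 15.2 on 5mC, 4.53 and 1.045 on 5hmC, and 93.1 and 77.15 on C in CEBPB(V285A). In CREB1 it scored 2.37 on the single 5mC array, where the fall was not called, 1.24 and 0.982 on 5hmC, and 12.4 and 23.4 on C. It was the highest reverse-complement member on C in all 3 proteins measured there, with a rank of 15 among all 8-mers for CEBPB(V285A). On C it stood above its half-site partner in both CEBPB(V285A) arrays, with a mean orientation difference (half-site minus reverse complement) of -27.4.

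On 5mC against C, CEBPB(V285A) scores rose at 53 of 54 half-site members and fell at 0 (limma, adjusted p under 0.05 over all 65126 8-mers with a probe). The background was 3.05% of all 8-mers higher. The exception was cccCGCAA, with 0.623 and 2.745 on 5mC against -0.237 and 0.899 on C. The median difference of the 54 was 10.5, and the median over all 8-mers tested was 0.00742. The largest rise was at ctaCGCAA, which scored 181 and 198 on 5mC against 7.40 and 9.38 on C (difference 181, adjusted p = 4.19e-10). tgaCGCAA rose by 164 (adjusted p = 6.23e-10), a call that ended under quantile normalization. cgaCGCAA scored 166 and 134 on 5mC against 4.56 and 4.42 on C (adjusted p = 2.89e-11). caaCGCAA scored 121 and 120.4 on 5mC against 5.34 and 3.56 on C (adjusted p = 1.84e-13), and ccaCGCAA 61.0 and 76.2 against 3.27 and 1.77 (adjusted p = 2.10e-11). All 5 had C or T at free position 1 and A at free position 3. They were picked among members whose arrays did not overlap between the forms.

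Of the reverse-complement members, 6 rose and 3 fell in CEBPB(V285A) on 5mC against C, with 45 not called and backgrounds of 3.05% higher and 3.52% lower. TTGCGtca fell by 69.1 (16.0 ± 1.12 on 5mC against 85.1 ± 11.3 on C, SD, 2 arrays each, adjusted p = 9.82e-11). TTGCGtct fell to -0.688 ± 0.657 on 5mC, against 2.78 ± 0.338 on C (adjusted p = 0.000101). TTGCGtga differed by -2.435 (adjusted p = 0.0392), but its call ended without any 1 of 7 arrays, among them both 5mC arrays and C replicate 1 (adjusted p up to 0.751). All 6 that rose ended in g, so that the half-site strand had C at free position 1. TTGCGtcg rose most, with 12.55 and 17.7 on 5mC against 5.055 and 4.96 on C (adjusted p = 2.34e-07).

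On 5hmC against C, CEBPB(V285A) scores changed at 0 of 54 half-site members (limma, backgrounds 2.25% higher and 4.9% lower; 5 had an unadjusted p under 0.05, against 19.5% of all 8-mers). Their median difference was 0.4815, against 0.00937 over all 8-mers. ctaCGCAA scored 27.3 and 10.3 on 5hmC against 7.40 and 9.38 on C, and cgaCGCAA 13.2 and 5.12 on 5hmC against 4.56 and 4.42 on C. The 5hmC arrays lay above the C arrays in both, and differed more between themselves than the C arrays did. Of the reverse-complement members, 9 fell and 0 rose. TTGCGtca fell by 82.3 (2.79 ± 2.46 on 5hmC against 85.1 ± 11.3 on C, adjusted p = 2.91e-11). TTGCGtag fell to 0.819 ± 0.122 on 5hmC, against 6.99 ± 1.39 on C (adjusted p = 7.77e-06), and TTGCGtcg to 0.115 ± 0.326, against 5.01 ± 0.0646 (adjusted p = 0.00347). The 9 calls became 4 without 5hmC replicate 2 or without C replicate 1, and 4 with run as a random block or under quantile normalization. Without the mean-variance trend 15 were called.

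Set against 5mC directly, CEBPB(V285A) scores on 5hmC were lower at 53 of 54 half-site members and 9 of 54 reverse-complement members, and higher at 0 (background 3.87% lower). ctaCGCAA was lower by 170.4 (adjusted p = 1.83e-09) and cgaCGCAA by 141 (adjusted p = 8.19e-11). The member not called among the half-sites was again cccCGCAA.

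CREB1 scores on the single 5mC array rose at 31 of 54 half-site members against C and fell at 0, with none of the 54 reverse-complement members called in either direction (3 of those had an unadjusted p under 0.05, against 7.95% of all 8-mers). The background was 0.441% of all 8-mers higher. The 31 calls became 14 on the asinh scale and 48 on log2 of the raw spots. All 54 half-site members scored above both C arrays, as did 34.5% of all 8-mers, with a median difference of 4.93 against -0.0839 over all 8-mers. ctaCGCAA, the highest of all 65535 8-mers on this array, scored 104 on 5mC against 4.67 and 4.19 on C (difference 99.9, adjusted p = 0.000857). ccaCGCAA scored 29.0 on 5mC against 0.527 and 1.19 on C (adjusted p = 0.00187). acaCGCAA scored 17.75 on 5mC against 2.90 and 3.28 on C (adjusted p = 4.68e-05). cgaCGCAA scored 46.7 against 3.23 and 2.73, a call at adjusted p = 0.0435 that ended when any 1 of 14 arrays was left out. tgaCGCAA, at 58.2 on 5mC against 18.6 ± 2.55 on C, was not called (adjusted p = 0.333). Within the run that held both groups, 40 members were called.

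The rise on 5mC differed between CEBPB(V285A) and CREB1 at 30 members on the Z scale: 28 half-site members had the larger rise in CEBPB(V285A), 1 reverse-complement member likewise and 1 the reverse, against 0.84% of all 8-mers larger in CEBPB(V285A). The difference in rise was 124 at tgaCGCAA (adjusted p = 0.000286), 102 at cgaCGCAA (adjusted p = 7.615e-05) and 95.2 at caaCGCAA (adjusted p = 1.44e-07). For TTGCGtca it was -53.6 (adjusted p = 5.49e-05). These calls did not hold on other scales. On the asinh scale and on log2 of the raw spots 0 of 108 were called, and under quantile normalization 7. The direction also turned: on log2 of the raw spots the difference was -0.407 at tgaCGCAA and -0.335 at cgaCGCAA, and TTGCGtca stood at 0.352 there and at 0.263 on the asinh scale.

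On 5hmC against C, CREB1 scores rose at 7 of 54 half-site members and 1 of 54 reverse-complement members, and fell at 0 and 2 (limma, backgrounds 4.38% higher and 5.58% lower). The reverse-complement counts were below those backgrounds. tgaCGCAA was higher by 57.8 (76.4 ± 8.97 on 5hmC against 18.6 ± 2.55 on C, adjusted p = 0.003305), but not without 5hmC replicate 2 (adjusted p = 0.0896) or with run as a random block. ataCGCAA scored 16.7 and 23.95 on 5hmC against 1.305 and 4.76 on C (adjusted p = 8.18e-05). ccaCGCAA scored 19.2 and 20.1 on 5hmC against 0.527 and 1.19 on C (adjusted p = 0.00356), and tcaCGCAA 12.7 on both 5hmC arrays against 1.86 and 3.86 (adjusted p = 0.000624). Of the 7 half-site members that rose, 5 had A at free position 3, the others being catCGCAA and cctCGCAA. TTGCGtca differed by -16.8 (adjusted p = 0.019), but not without C replicate 2 or either 5hmC array (adjusted p up to 0.219). The 10 calls became 4 without 5hmC replicate 2, 6 without C replicate 1, 18 without either CEBPB(V285A) 5mC array and 3 with run as a random block. The asinh scale called 19 and log2 of the raw spots 27.

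The effect of 5hmC differed between CEBPB(V285A) and CREB1 at 6 members, all with the lower change in CEBPB(V285A), 3 in each orientation (background 1.84%). The difference was -65.6 at TTGCGtca (adjusted p = 2.44e-06) and -13.8 at tcaCGCAA (adjusted p = 0.00113). On the asinh scale 0 were called, and 3 were called without CREB1 C replicate 1, without CREB1 5hmC replicate 2 or with run as a random block.

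CREB1(A297V) gave no called member on 5mC (background 0.0399% of all 8-mers called) or on 5hmC (0.255%) against C. At an unadjusted p under 0.05 stood 7 half-site and 4 reverse-complement members on 5mC, and 2 and 8 on 5hmC. Over all 8-mers those shares were 9.54% on 5mC and 15.4% on 5hmC, so the members' counts were near or below them. Log2 of the raw spots called 3 members on 5mC and 4 on 5hmC, the asinh scale called 2 on 5hmC, and 2 were called on 5hmC without 5hmC replicate 1. Its highest half-site members on 5mC were ctaCGCAA, tgaCGCAA and caaCGCAA. ctaCGCAA scored 12.6 and 24.3 on 5mC against 1.87 and 2.13 on C, and caaCGCAA 5.33 and 7.28 on 5mC against 2.60 and 2.06 on C. In both the arrays did not overlap.

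On 5hmC, wild-type CEBPB gave low scores to the members, of which only tgaCGCAA had a mean above 5, with 9.73 and 2.85 on its arrays. For scale, the C/EBP palindrome itself, which the rule left out, scored 35.2 on these arrays. CEBPB was lower than CREB1 at 8 half-site members and 1 reverse-complement member and higher at 1 (backgrounds 2.38% lower and 0.88% higher). ataCGCAA scored 2.06 and 2.16 in CEBPB against 16.7 and 23.95 in CREB1 (adjusted p = 4.69e-05), and tcaCGCAA 2.22 and 0.351 against 12.7 on both arrays (adjusted p = 0.000131). The 1 reverse-complement member higher in CEBPB was TTGCGact, between low scores (1.03 ± 0.212 in CEBPB against -0.851 ± 0.128 in CREB1). The 10 calls became 3 to 5 when any 1 of these 4 arrays was left out, and 32 in a fit of the run that held both groups alone. Log2 of the raw spots called 19.

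CEBPB(V285A) on 5hmC was higher than CEBPB at 4 half-site members (tgaCGCAA, gtaCGCAA, agaCGCAA and aacCGCAA) and lower at TTGCGact alone (backgrounds 1.96% higher and 0.66% lower). agaCGCAA scored 7.35 and 4.66 in CEBPB(V285A) against 0.606 and -0.0246 in CEBPB (difference 5.71, adjusted p = 0.00357), a call that ended without CEBPB replicate 2 or CEBPB(V285A) replicate 1. The 5 calls became 0 with run as a random block, 13 on the asinh scale, 16 on log2 of the raw spots and 12 without the mean-variance trend. They became 0 without CEBPB replicate 2, 1 without CEBPB replicate 1, 2 or 3 without any 1 of the other 5hmC arrays of CREB1 and CEBPB(V285A) or any 1 C array of either, and 11 or 10 without CEBPB(V285A) 5mC replicate 1 or 2.

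Against CREB1 on 5hmC, CEBPB(V285A) was lower at 2 half-site and 2 reverse-complement members and higher at 1 (background 4.02% called in either direction). Over all members this was near the background. These 5 calls became 2 without CREB1 5hmC replicate 1 or CEBPB(V285A) 5hmC replicate 2, 1 without CREB1 5hmC replicate 2 and 3 without CREB1 C replicate 1. With run as a random block 1 was called, on the asinh scale 3 and on log2 of the raw spots 9. CREB1(A297V) on 5hmC was lower than CREB1 at 12 half-site and 3 reverse-complement members (background 6.34% lower). The reverse-complement count was near that background. tgaCGCAA was lower by 72.1 (4.37 ± 0.901, 4 arrays, against 76.4 ± 8.97, 2 arrays, adjusted p = 6.18e-05) and tcaCGCAA by 12.6 (adjusted p = 3.02e-06). The 15 calls became 7 and 6 without CREB1 5hmC replicate 1 and 2, and 7 with run as a random block. The asinh scale called 28 and log2 of the raw spots 33.

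On C, few members were called between the proteins. CEBPB(V285A) was higher than CREB1 at 1 half-site and 4 reverse-complement members and lower at 0 (background 1.07% higher). TTGCGtca scored 93.1 and 77.15 in CEBPB(V285A) against 12.4 and 23.4 in CREB1 (adjusted p = 7.97e-09), and TTGCGtag 7.97 and 6.00 against 1.72 and 2.55 (adjusted p = 0.0009625), a call that ended without CEBPB(V285A) C replicate 1 (adjusted p = 0.0521). Both calls ended on the asinh scale and on log2 of the raw spots, and the 5 became 2 without CREB1 C replicate 1 and 3 without either CEBPB(V285A) C array. They became 1 on the asinh scale, 0 on log2 of the raw spots, 1 under quantile normalization, 2 with run as a random block and 8 without the mean-variance trend. tgaCGCAA, at 57.7 ± 4.35 in CEBPB(V285A) against 18.6 ± 2.55 in CREB1, was not called (adjusted p = 0.149). The fit held 1 spread per 8-mer for all groups. The standard error of this difference was 11.6, and tgaCGCAA had SDs of 22.9 and 13.25 in CEBPB(V285A) on 5mC and 5hmC. CREB1(A297V) against CREB1 on C gave 0 called members (background 1.73% in either direction, 3 half-site and 7 reverse-complement members at an unadjusted p under 0.05, against 9.95% of all 8-mers). Log2 of the raw spots called 5 and the asinh scale 2. The count was 1 within the run that held both groups, and 1 without either CEBPB(V285A) C array or CREB1(A297V) 5hmC replicate 1.

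The orientation difference, the score of a half-site member minus that of its own reverse complement, compared the same double-stranded site with the modified strand exchanged. For pairs of 8-mers outside the members the difference was taken in alphabetical order, so the direction of their background is arbitrary. On 5mC the half-site form was the higher in 54 of 54 pairs on both CEBPB(V285A) arrays and on the CREB1 array, against 44.2% and 60.8% of all pairs with the first 8-mer higher. On 5hmC it was the higher in 45 of 54 for the CEBPB(V285A) group means and 44 of 54 for CREB1, against 36 and 37 on C. Over all pairs the first 8-mer was the higher in 50.4% and 45.2% on 5hmC, against 57.3% and 60.5% on C. For CEBPB on 5hmC it was the higher in 16 of 54, with 20 and 15 on the 2 arrays, against 43.1% of all pairs. The median orientation difference was 9.88 on 5mC, 1.25 on 5hmC and 0.433 on C in CEBPB(V285A), and 5.78, 1.31 and 0.724 in CREB1.

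From C to 5mC the orientation difference of CEBPB(V285A) rose in 50 of 54 pairs, against 2.82% of all 32230 pairs of 8-mers tested higher and 5.25% called either way. On the asinh scale 17 were called. Not called were cccCGCAA, accCGCAA, gacCGCAA and gatCGCAA. The change was largest for tgaCGCAA, at 205 ± 21.8 on 5mC against -27.4 ± 6.925 on C (adjusted p = 3.73e-09). For CREB1 it rose in 25 of 54 pairs (background 0.456% higher, 0.729% either way), but in 0 on the asinh scale, with ctaCGCAA at 103 on the 5mC array against a mean of 2.296 on C (adjusted p = 0.000255). With 5hmC it rose in 5 pairs for CEBPB(V285A) (background 1.65% higher, 3.78% either way), which became 1 on the asinh scale or under quantile normalization, 0 and 1 without its C replicate 2 and 1, 3 without either of its 5hmC arrays and 8 without either of its 5mC arrays. tgaCGCAA stood at 48.6 ± 15.7 on 5hmC against -27.4 ± 6.925 on C (adjusted p = 0.0141), a call lost without either C array. For CREB1 with 5hmC it rose in 10 pairs and fell in 1, aacCGCAA (background 4.0% higher, 15.5% either way). Taken either way, these 11 of 54 pairs were a share little above the background. ccaCGCAA stood at 18.6 ± 0.636 on 5hmC against -0.728 ± 0.240 on C (adjusted p = 0.0001435). The 11 calls became 4 to 6 without any 1 of the CREB1 5hmC and C arrays, and 18 and 17 without CEBPB(V285A) 5mC replicate 1 and 2. Log2 of the raw spots called 18. CREB1(A297V) gave 0 called pairs with 5mC (background 0.031%, 8 at an unadjusted p under 0.05, against 9.69% of all pairs) and with 5hmC (0.549%, 3 at an unadjusted p under 0.05, against 16.7% of all pairs). With 5mC quantile normalization called 3 and log2 of the raw spots 1. With 5hmC log2 of the raw spots called 3, and 1 was called without 5hmC replicate 1.

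The free bases ordered the members within the half-site orientation. The base next to the CpG gave the widest separation: on CEBPB(V285A) 5mC the 15 members with A at free position 3 had medians of 27.99 and 29.98 on the 2 arrays, against 13.2 and 16.9 for the 9 with G, 7.85 and 9.17 for the 15 with T, and 6.69 and 6.97 for the 15 with C. On CREB1 5mC the medians were 15.25 with A, 6.35 with G, 4.18 with T and 4.10 with C. On 5hmC the members with A stood at 7.35 and 5.12 in CEBPB(V285A) and at 8.77 and 9.99 in CREB1, while no other base gave a median above 1.91 on those 4 arrays. A at this position was thus the highest of the 4 bases on every CEBPB(V285A) and CREB1 array. At free position 1, CEBPB(V285A) 5mC medians were 25.2 and 23.2 with C (15 members) and 19.4 and 23.5 with T (9), against 8.55 and 10.1 with A (15) and 6.43 and 6.97 with G (15). The single CREB1 5mC array did not share that order over all members, with medians between 5.28 and 6.08 for all 4 bases. Among members with A at position 3, its scores were 24.2 to 104 with C at position 1 and 9.25 to 58.2 with T. They were 5.57 to 17.75 with A and 6.08 to 15.25 with G. The 6 members that combined A at position 3 with 1 C in the first 2 bases had a median of 76.1 on CEBPB(V285A) 5mC, against 23.1 for the 8 with A and no other C, and of 20.99 against 8.96 on CREB1 5mC. The 6 split by the place of that C. On CREB1 5mC those with C at position 1 scored 104.3, 46.7 and 24.2, and those with C at position 2 scored 17.75, 15.25 and 10.7. Of the 6, only those with C at position 1 were among the largest rises named above for CEBPB(V285A). With another base at position 3 the same comparison gave smaller differences: on CEBPB(V285A) 5mC 12.8 against 8.18 with C, 13.5 against 12.3 with G and 9.41 against 7.91 with T. On CREB1 5mC it gave 7.42 against 3.40 with C, 6.18 against 6.105 with G and 5.52 against 3.91 with T. These medians, scores and ranges cover few related 8-mers and were not tested.

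Replacing the C before the half-site by T gave the most similar 8-mers, which keep the modified C inside the half-site and lose the CpG. With T at free position 3 the exchange also gives TTGCAA, which holds GCAA on both strands. In those pairs the lost CpG cannot be told apart from the added half-site. On CEBPB(V285A) 5mC the CpG form was higher in 35 of 54 half-site pairs and lower in 4 (limma over 16038 pairs that differ by C or T at position 4, backgrounds 5.12% higher and 7.76% lower). The count of lower pairs was near its background. The 39 calls became 7 on the asinh scale and 24 on log2 of the raw spots. ctaCGCAA scored 181 and 198, against 77.6 and 129 for ctaTGCAA (adjusted p = 1.12e-10). caaCGCAA scored 121 and 120.4, against 48.75 and 50.7 for caaTGCAA (adjusted p = 2.91e-20). The 4 lower pairs were cccCGCAA, gcaCGCAA, cgcCGCAA and gatCGCAA, cccCGCAA with 0.623 and 2.745 against 16.3 and 14.7 for cccTGCAA (adjusted p = 1.19e-08). The call for gcaCGCAA ended without 5mC replicate 1 (adjusted p = 0.703). The hybrid was not called, with 237.5 and 205 for tgaCGCAA against 207 and 202 for tgaTGCAA (adjusted p = 0.0986).

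On C, the CpG form was higher in 2 and lower in 3 of the 54 pairs in CEBPB(V285A) (backgrounds 5.55% and 9.45%). Neither count was above its background. tcaCGCAA scored 9.60 and 11.9, against 4.145 and 3.30 for tcaTGCAA (adjusted p = 2.35e-06). Those 5 calls became 2 and 3 without C replicate 1 and 2, and 8 without either 5mC array. Quantile normalization called 3 and log2 of the raw spots 12. The change of the CpG minus TpG difference with 5mC was higher in 32 pairs and lower in 3 in CEBPB(V285A) (backgrounds 4.3% and 3.47%), with caaCGCAA at 71.0 ± 1.81 on 5mC against 1.12 ± 1.39 on C (adjusted p = 2.87e-17). On the asinh scale 3 were called, on log2 of the raw spots 7 and under quantile normalization 16. The change at ctaCGCAA, 79.1 on the Z scale, was -0.8525 on the asinh scale and -0.1325 on log2 of the raw spots. In CREB1 it was higher in 10 pairs and lower in 0 (background 1.02%), among them ccaCGCAA by 22.9 (adjusted p = 2.67e-05). The asinh scale called 0 of these, and quantile normalization called 22 pairs. Leaving out CREB1 C replicate 1 gave 6 calls, and leaving out either CEBPB(V285A) 5mC array gave 16.

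On 5hmC the CpG form was lower than the TpG form in 20 of 54 half-site pairs and higher in 2 in CREB1 (backgrounds 7.15% and 1.74%), lower in 9 and higher in 0 in CEBPB(V285A) (background 10.8% lower), and lower in 9 and higher in 0 in CEBPB (12.2% lower). For CEBPB(V285A) and CEBPB, 9 of 54 pairs is near those backgrounds. In CREB1 tgaCGCAA scored 70.1 and 82.8, against 141 and 171 for tgaTGCAA, a C/EBP and ATF composite site and the highest 8-mer on the CREB1 5hmC arrays (adjusted p = 8.28e-08). The 2 pairs with the higher CpG form were ataCGCAA (16.7 and 23.95, against 9.04 and 7.50 for ataTGCAA, adjusted p = 7.19e-06) and tcaCGCAA (12.7 on both arrays, against 5.93 and 8.11 for tcaTGCAA), whose call ended without CREB1 replicate 1 (adjusted p = 0.0545). In CEBPB the widest gap was at gatCGCAA, with -0.0971 and -0.0984 against 6.69 and 7.01 for gatTGCAA (adjusted p = 1.86e-07). Most of the 9 lower pairs in CEBPB, gatCGCAA among them, had T at free position 3, so that the TpG form held TTGCAA. Counts fell to 5 and 6 without CREB1 replicate 1 and 2, to 4 without CEBPB(V285A) replicate 1 (16 without either of its 5mC arrays), and to 3 and 1 without CEBPB replicate 1 and 2. On the asinh scale they were 8 in CREB1 and 5 in CEBPB(V285A). In CEBPB they were 16 under quantile normalization and 19 on log2 of the raw spots.

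Between 5hmC and C the CpG minus TpG difference was higher in 1 pair and lower in 7 in CEBPB(V285A) (backgrounds 2.71% and 4.96%), and higher in 1 and lower in 8 in CREB1 (1.14% and 2.82%). In both the hybrid moved most: its difference was -45.6 ± 31.5 on 5hmC against 12.9 ± 8.35 on C in CEBPB(V285A) (adjusted p = 0.000165), and -79.6 ± 11.7 on 5hmC against 15.7 ± 0.840 on C in CREB1 (adjusted p = 1.30e-06). The 8 calls of CEBPB(V285A) became 4 without its C replicate 1 and 5 without any 1 of 9 other arrays, 0 on the asinh scale and 5 under quantile normalization. The 9 of CREB1 became 3 or 4 without any 1 of its C and 5hmC arrays and 14 without either CEBPB(V285A) 5mC array, 5 on the asinh scale and 16 on log2 of the raw spots.

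In reverse-complement orientation both forms keep the modified C at position 4, and the exchanged base, at position 5, pairs with the C before the half-site on the unmodified strand (16345 pairs tested). Where A follows TTGCG, the exchange also gives TTGCAA, which holds GCAA on both strands. In those pairs the lost CpG cannot be told apart from the added half-site. Every pair called lower below in CEBPB(V285A) on 5mC and in CREB1 on 5hmC was of this kind. On C, the CpG form was higher in 7 of 54 pairs and lower in 0 in CEBPB(V285A) (background 4.09% higher, 3 without C replicate 1 or under quantile normalization, 11 on log2 of the raw spots), led by TTGCGtca with 93.1 and 77.15 against 17.0 and 14.6 for TTGCAtca (adjusted p = 5.54e-15). On 5mC it was higher in 10 and lower in 14 (4.12% and 11.6%). TTGCGtcg scored 12.55 and 17.7, against 1.43 and 3.48 for TTGCAtcg (adjusted p = 5.80e-12), and TTGCGata scored 0.857 and 0.497, against 16.9 and 25.2 for TTGCAata (adjusted p = 2.90e-10). On 5hmC it was lower in 15 and higher in 1 in CEBPB(V285A) (10.1% lower, 10 of these 16 calls without 5hmC replicate 1), lower in 10 in CREB1 (6.06%) and lower in 7 in CEBPB (1.97%), the last becoming 1 and 0 without CEBPB replicate 1 and 2 and 12 under quantile normalization. In CREB1 on 5hmC TTGCGata scored 0.470 and 0.671, against 22.1 and 26.5 for TTGCAata (adjusted p = 1.05e-10). The change against C was lower in 12 pairs with 5mC and in 12 with 5hmC in CEBPB(V285A) (backgrounds 4.84% and 3.98%), in 10 with 5hmC in CREB1 (1.68%) and in 1 with 5mC in CREB1 (0.869%). Higher were 2 pairs with 5mC in CEBPB(V285A), TTGCGtcg and TTGCGcgt, the second not without any 1 of the 4 arrays compared. The 14 calls with 5mC became 4 on the asinh scale, 7 under quantile normalization and 5 on log2 of the raw spots. The 12 with 5hmC became 3 on the asinh scale and 5 without CEBPB(V285A) C replicate 1. The 10 became 4 on the asinh scale and 5 or 6 without either CREB1 C array or CREB1 5hmC replicate 2, and the single CREB1 5mC call, TTGCGatc, ended without any 1 of 15 arrays. Counted over the 54 pairs, CREB1 5mC had 0 calls on the asinh scale, 4 under quantile normalization and 7 on log2 of the raw spots, and 0 calls without any 1 of 8 arrays and 5 without either CEBPB(V285A) 5mC array.

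The spot intensities showed the base on the far side of the half-site, which the 8-mers do not hold. Of the 40330 spots, 981 carried CGCAA once and 1033 carried TTGCG once, with no other core and no near-palindrome. Their median intensity, in multiples of the array median, was 2.69 and 2.78 on CEBPB(V285A) 5mC for CGCAA and 1.18 and 1.17 for TTGCG, against 0.973 and 0.975 for 37068 spots with neither. On C, CGCAA gave 1.17 and 1.16 in the same protein. Among spots with A before CGCAA, those followed by T had medians of 17.9 and 23.6 on CEBPB(V285A) 5mC (65 spots), against 8.77 and 7.85 with C (67), 5.07 and 6.775 with G (64) and 2.27 and 2.125 with A (72). The base after the half-site therefore separated medians that shared all bases of the core. On CREB1 5mC the medians were 5.00 with T and 1.98 with A, and on CREB1 5hmC 3.82 and 5.61 with T and 1.59 and 1.75 with A. The order was not the same at tgaCGCAA, which had 3 to 5 spots per next base. Its median intensity on CEBPB(V285A) 5mC was 65520 and 56260 with C, against 40290 and 32380 with T. On CREB1 5mC it was 62750 with C, 27240 with A and 15760 with T. Position on the probe moved with intensity too. Counted from the 5′ end of the variable bases, CGCAA starting at bases 17 to 24 gave 6.05 and 5.98 on CEBPB(V285A) 5mC (272 spots), against 1.48 and 1.59 at bases 1 to 8 (247 spots). At bases 9 to 16 it gave 2.74 and 2.97, and at bases 25 to 31 2.69 and 2.60, so the highest values were not at either end. Among probes holding tgaCGCAA the highest spot read 65530 on CREB1 5mC and on both CREB1 5hmC arrays, and 65520 on both CEBPB(V285A) 5mC arrays, while 65530 was the highest value of any spot on any array. Spots with a member at or above 65000 numbered at most 8 on any array.

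On CEBPB(V285A) the half-site members had medians of 11.4 on 5mC and 1.24 on C, beside medians of 22.9 on 5mC and 3.69 on C for the 9 half-site 8-mers that the rule left out for being within 1 mismatch of a palindrome. The highest of those 9 was ttaCGCAA, which is within 1 mismatch of both the PAR and the C/EBP palindrome. It scored 253 on 5mC, 141 on 5hmC and 118 on C, above tgaCGCAA on all 3 forms.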

How the data were processed

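Protein binding microarray data of 21 arrays in 10 groups were used. The deposited Z-score matrix gives a score per 8-mer and array as the authors made it; how it was computed is not given in the sources used here. The deposited spot files hold the median intensity of each spot and of its local background, per the file headers, with no background subtracted. The number of arrays and of probes per 8-mer limits the precision.

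Names of 8-mers were complemented base by base, which tracked intensities best when read on the synthesised strand (correlation 0.603 to 0.986 over arrays, at most 0.818 on the printed sequence). Scores were fitted with limma 3.58.1 in R 4.3.3 (lmFit, eBayes with a mean-variance trend, all 21 arrays, 1 coefficient per group, 11 residual degrees of freedom). Each 8-mer thus had 1 spread for all groups, so groups with widely spread scores could widen the error of other comparisons. P-values were adjusted by Benjamini-Hochberg over the 65126 8-mers with at least 1 probe (409 had none), or over all pairs of the same kind, and called at 0.05. The fits were tested on simulated data. Named members were the hybrid, the highest and lowest members per group, up to 5 called members per direction with arrays that did not overlap, and exceptions to near-complete counts. Members, lists and tests were chosen with earlier results of these data known. Alternatives were the asinh scale, quantile normalization, log2 of raw spots after normexp with offset 50, at least 8 probes, no trend, the replicate number as a block, run as a random block, arrays of 1 run, and each array left out. Same-numbered arrays did not deviate together (36 correlations from -0.381 to 0.206, 9 above 0.1).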

Additional observations from a re-analysis of the deposited data

Results flagged for a closer look

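The change from C to 5mC differed between CEBPB(V285A) and CREB1 at 30 members by the interaction term in limma on the Z scale, with 0 called on the asinh scale and 0 on log2 of the raw spots. The change from C to 5hmC differed between them at 6 members on the Z scale, with 0 on the asinh scale and 4 on log2 of the raw spots. Protein and run cannot be told apart in either comparison.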

How the results depend on the processing

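On the Z scale the counts were 62 members for CEBPB(V285A) 5mC against C, and 47 to 65 under the alternatives run, and 62 for its 5hmC against 5mC, and 50 to 64. Counts below moved by over 1.5 times, and the cause was not tested.

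On the asinh scale, members called were 14 for CREB1 5mC against C, 19 for CREB1 5hmC against C, 2 for CREB1(A297V) 5hmC against C, 1 and 3 for CEBPB(V285A) against CREB1 on C and 5hmC, 2 and 28 for CREB1(A297V) against CREB1 on C and 5hmC, 13 for CEBPB(V285A) against CEBPB, and 0 for both interactions. Orientation changes were 17 and 1 for CEBPB(V285A) with 5mC and 5hmC and 0 for CREB1 with 5mC. CpG against TpG in half-site orientation gave 7 in CEBPB(V285A) 5mC, 5 in its 5hmC, 8 in CREB1 5hmC, and changes of 3, 0, 0 and 5 (CEBPB(V285A) 5mC and 5hmC, CREB1 5mC and 5hmC). In reverse-complement orientation the changes were 4, 3, 0 and 4.

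On log2 of raw spots, members called were 48 and 27 for CREB1 5mC and 5hmC against C, 3 and 4 for CREB1(A297V), 0 and 9 for CEBPB(V285A) against CREB1 on C and 5hmC, 5 and 33 for CREB1(A297V) against CREB1, 16 for CEBPB(V285A) against CEBPB, 19 for CEBPB against CREB1 and 0 for the 5mC interaction. Orientation changes were 18 for CREB1 5hmC and 1 and 3 for CREB1(A297V) 5mC and 5hmC. Half-site CpG against TpG gave 12 in CEBPB(V285A) C, 24 in its 5mC, 19 in CEBPB, and changes of 7 (CEBPB(V285A) 5mC) and 16 (CREB1 5hmC). Reverse-complement pairs gave 11 in CEBPB(V285A) C and changes of 5 (its 5mC) and 7 (CREB1 5mC).

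Quantile normalization gave 4 for CEBPB(V285A) 5hmC against C, 1 for CEBPB(V285A) against CREB1 on C and 7 for the 5mC interaction. It gave orientation changes of 1 (CEBPB(V285A) 5hmC) and 3 (CREB1(A297V) 5mC). Half-site CpG against TpG gave 3 in CEBPB(V285A) C, 16 in CEBPB, and changes of 16, 5 and 22 (CEBPB(V285A) 5mC and 5hmC, CREB1 5mC). Reverse-complement pairs gave 3 in CEBPB(V285A) C, 12 in CEBPB, and changes of 7 and 4 (CEBPB(V285A) and CREB1 5mC). Without the trend the counts were 15, 8 and 12 for CEBPB(V285A) 5hmC against C, against CREB1 on C and against CEBPB.

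With the replicate number as a block, which did not pair the arrays, 16 members were called for CEBPB(V285A) 5hmC and 16 for CREB1 5hmC against C, 8 each for CEBPB(V285A) against CREB1 on C, on 5hmC and against CEBPB, 1 for CREB1(A297V) against CREB1 on C, 14 half-site CpG pairs in CEBPB(V285A) 5hmC and 0 for the reverse-complement change in CREB1 5mC. It moved no other count by over 1.5 times. With run as a random block the counts were 4 and 3 for CEBPB(V285A) and CREB1 5hmC against C, 2 and 1 for CEBPB(V285A) against CREB1 on C and 5hmC, 1 and 7 for CREB1(A297V) against CREB1, 0 for CEBPB(V285A) against CEBPB and 3 for the 5hmC interaction. Single runs gave 1 for CREB1(A297V) against CREB1 on C and 32 for CEBPB against CREB1.

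Leaving out 1 array at a time gave ranges of 4 to 12 and 4 to 18 (CEBPB(V285A) and CREB1 5hmC against C), 0 to 2 (CREB1(A297V) 5hmC), 2 to 7 and 1 to 6 (CEBPB(V285A) against CREB1 on C and 5hmC), 0 to 1 and 6 to 22 (CREB1(A297V) against CREB1), 0 to 11 (CEBPB(V285A) against CEBPB), 3 to 14 (CEBPB against CREB1) and 3 to 8 (5hmC interaction). Orientation ranges were 0 to 8, 4 to 18 and 0 to 1 (5hmC in CEBPB(V285A), CREB1 and CREB1(A297V)). Half-site CpG ranges were 2 to 8, 4 to 16, 5 to 26 and 1 to 12 (CEBPB(V285A) C and 5hmC, CREB1 and CEBPB 5hmC), with changes of 4 to 10, 6 to 16 and 3 to 14 (CEBPB(V285A) 5hmC, CREB1 5mC and 5hmC). Reverse-complement ranges were 3 to 10, 10 to 16 and 0 to 9 (CEBPB(V285A) C and 5hmC, CEBPB 5hmC), with changes of 5 to 16, 0 to 5 and 5 to 11 (CEBPB(V285A) 5hmC, CREB1 5mC and 5hmC). Asking for at least 8 probes per 8-mer moved no count by over 1.5 times. The number of probes limits cccCGCAA most, with 4.

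Directions that turned were, for the 5mC interaction, tgaCGCAA (-0.407 on raw log2), cgaCGCAA (-0.335 on raw log2, -12.15 quantile), ctaCGCAA (-0.03005 asinh, -1.304 raw log2, -66.45 quantile), ccaCGCAA (-0.00672 asinh, -0.953 raw log2, -14.27 quantile) and TTGCGtca (0.263 asinh, 0.352 raw log2). For the CpG against TpG change they were ctaCGCAA in CEBPB(V285A) 5mC (-0.8525 asinh, -0.1325 raw log2) and CREB1 5mC (-0.815 asinh), cgcCGCAA in CEBPB(V285A) 5mC (0.0185 raw log2) and ataCGCAA in CREB1 5hmC (-0.0906 asinh).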
